A study of Mus musculus with 8 samples.

Results

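The genes described here were 6 keratins of the sheath that encloses the growing hair, *Krt25*, *Krt27*, *Krt28*, *Krt71*, *Krt73* and *Krt75*. They were chosen by name, as the rows of the expression table that carry these symbols, and made up 6 of its 23358 genes. All 6 were found once and all 6 passed the filter on low values described below. RNA-seq was performed on tissues of the cervical loop, where the mouse incisor grows, taken at 4 weeks of age from mice of the C57BL/6 strain. The head of the loop (CLH) is the region of the dental epithelial stem cells and its tail (CLT) is the region of their progenies. In *Med1* cKO mice, Cre driven by the *Krt14* promoter removed exons 8 to 10 of floxed *Med1*, a subunit of the Mediator complex, from epithelial cells, so that the mesenchyme in the same tissue kept the gene. Ctrl mice were littermates without Cre. Each of the 4 groups (Ctrl CLH, cKO CLH, Ctrl CLT and cKO CLT) had 2 libraries, which are called 1 and 2 as in the labels. The study's methods name 2 litters and pooled tissues, but which litter a replicate number stands for is not given in the sources used here.

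Keratins build intermediate filaments from pairs of an acidic type I chain and a basic type II chain, and each layer of the hair follicle uses its own pairs. The inner root sheath is a set of concentric layers that hardens first, moulds the hair shaft and breaks down higher in the follicle, and the companion layer is the flat cell sheet between it and the outer root sheath. *Krt25*, *Krt27* and *Krt28* encode type I and *Krt71* and *Krt73* type II keratins of the inner root sheath, with KRT73 known from its cuticle. *Krt75* encodes the type II keratin that marks the companion layer, and changes in *Krt71*, *Krt25* and *Krt27* are known from mice with curly or wavy coats. None of these layers is part of the normal enamel organ.

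The 6 genes lay in 2 keratin clusters of the mouse genome (mm10), all on the minus strand. The type I genes spanned 59.1 kb of chromosome 11, with *Krt25* at 99315844 to 99322941, *Krt27* at 99345566 to 99351094 and *Krt28* at 99365007 to 99374903, each with 8 exons. The type II genes spanned 239 kb of chromosome 15, with *Krt75* at 101563343 to 101573904, *Krt71* at 101733949 to 101743097 and *Krt73* at 101793308 to 101802332, each with 9 exons. By the GENCODE M21 annotation 5 of the 6 overlapped no other gene, and *Krt75* overlapped 1 miRNA gene on the other strand. Of all stretches of 50 bases in their annotated transcripts, the share also found in transcripts of another gene was 11.1% for *Krt27*, 10.9% for *Krt25*, 2.41% for *Krt28*, 1.97% for *Krt71*, 1.32% for *Krt73* and 0% for *Krt75*. The partners were other keratins, so a small part of the reads of the first 5 could not have been assigned to 1 gene by a single read.

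The 250 bases before the annotated start of 4 of the genes are shown, because they cover both keratin types and both layers. *Krt25* is a type I gene, *Krt71* was the most abundant type II gene, *Krt73* is its neighbour, and *Krt75* is the companion layer gene. The sequences are from RefSeq on GRCm38.p6, on the minus strand of chr11:99322952-99323201, chr15:101743098-101743347, chr15:101802361-101802610 and chr15:101573905-101574154. For *Krt25*, *Krt27* and *Krt73* the start used here lies upstream of the gene end given above, so distances from those gene ends are larger. Capitals mark the letters TATAAA, the core of the TATA box, and AGATAA, a form of the site that GATA factors bind.
Krt25: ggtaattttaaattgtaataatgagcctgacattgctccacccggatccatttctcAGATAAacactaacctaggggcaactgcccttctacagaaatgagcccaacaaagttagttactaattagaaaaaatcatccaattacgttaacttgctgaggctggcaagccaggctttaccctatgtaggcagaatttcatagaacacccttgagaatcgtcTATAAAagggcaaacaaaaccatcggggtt
Krt71: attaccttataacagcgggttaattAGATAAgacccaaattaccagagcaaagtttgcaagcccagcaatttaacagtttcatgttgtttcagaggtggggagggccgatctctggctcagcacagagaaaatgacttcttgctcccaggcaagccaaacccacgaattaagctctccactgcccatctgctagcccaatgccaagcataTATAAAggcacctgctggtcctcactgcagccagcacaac
Krt73: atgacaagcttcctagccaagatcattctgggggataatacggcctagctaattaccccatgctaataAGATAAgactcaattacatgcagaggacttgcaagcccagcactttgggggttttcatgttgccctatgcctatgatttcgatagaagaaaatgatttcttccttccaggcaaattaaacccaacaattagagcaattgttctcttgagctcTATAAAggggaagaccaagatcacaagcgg
Krt75: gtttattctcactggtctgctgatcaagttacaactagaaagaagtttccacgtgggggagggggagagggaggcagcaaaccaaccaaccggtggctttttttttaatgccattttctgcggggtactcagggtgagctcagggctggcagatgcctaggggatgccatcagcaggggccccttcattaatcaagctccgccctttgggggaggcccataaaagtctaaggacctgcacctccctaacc
TATAAA was found in the promoters of 5 of the 6 genes, starting 40 bases (*Krt71*), 30 bases (*Krt25*, *Krt28* and *Krt73*) or 15 bases (*Krt27*) before the annotated start. These letters stood on either strand in 12.4% of the 32851 promoters of the same length. Within bases 45 to 16 before the start, on the strand of the gene, they stood in 2.14% of the promoters and in 4 of the 6 genes. AGATAA was found in 4 of the 6, starting 225 (*Krt71*), 194 (*Krt25*), 183 (*Krt27*) and 182 (*Krt73*) bases before the start, and stood in 9.99% of all promoters. *Krt75* held neither set of letters. Of 3 further motifs, CCAAT was found in 3 of the 6 genes and in 33.8% of all promoters, CTTTGA, a site of LEF1, in 1 of the 6 and in 13.8%, and TGANTCA, the AP-1 site, in 0 of the 6 and in 6.75%. Each motif was searched on both strands, no match overlapped another, and the motifs were chosen after the promoters had been read. In global alignments, the promoters of 2 members were identical at 47.3% (*Krt73* and *Krt75*) to 56.8% (*Krt25* and *Krt27*) of the aligned columns, and *Krt71* and *Krt73* at 52.5%.

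The libraries held 26591612 to 34420181 reads, and 22330512 to 28651106 of them lay on genes of the table. The values are RPKM, reads scaled by gene length and by the library total. The pair of Ctrl CLT libraries stood apart from each other. Between them 34.6% of the 14148 genes tested differed more than 1.5-fold on the RPKM + 1 scale, against 0.763% to 1.12% within the pairs of the other groups. *Med1* was at 4.83 RPKM in Ctrl CLT 1, at 8.71 in Ctrl CLT 2 and at 9.15 and 8.96 in the cKO CLT pair, and at 7.71 and 9.12 in Ctrl CLH against 7.1 and 7.03 in cKO CLH. The RPKM covers the whole gene, of which 3 exons are deleted and only in epithelium, so it does not check the labels. The tissue label was compared with enamel and dentin markers. The 7 ameloblast markers summed to 84584 RPKM in Ctrl CLT 1 and 37392 in Ctrl CLT 2, to 12503 to 14318 in the CLH libraries and to 19.7 and 15.8 in cKO CLT. All 7 fell in cKO CLT, among them *Amelx*, the main enamel matrix protein, from 48799 and 18601 to 6.57 and 3.68 (limma log2 fold change -12.31 ± 0.57 SE, adjusted p = 0.02) and *Mmp20*, an enamel protease, from 152 and 96.5 to 0.348 and 0.28 (-6.54 ± 0.27, adjusted p = 0.02). With 1 of the 4 CLT libraries left out, 6 or 7 of the list passed, and 2 passed with voom and 1 without the filter on low values. Of 5 odontoblast and bone markers 4 fell by limma, but 1 with voom and 1 without the filter on low values. Among the 5, 1 had no read in either cKO CLT library. The list's summed RPKM was 1086 and 1164 in Ctrl CLT against 1.24 and 0.886 in cKO CLT. The summed ameloblast and the summed odontoblast and bone markers were therefore far lower in the libraries labelled cKO CLT than in any other library. The 5 stratum intermedium markers were not, at a summed 763 and 843 RPKM in cKO CLT against 982 and 771 in Ctrl CLT. Because of these facts, each comparison with Ctrl CLT is given for both of its libraries apart.

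All 6 keratins were abundant in the cKO CLT libraries, present at a lower level in Ctrl CLT 1, and far lower in Ctrl CLT 2, at 0.642 (*Krt73*) to 6.68 (*Krt25*) times their Ctrl CLH mean. *Krt71* had the highest RPKM of any gene in cKO CLT. In CLH the genes were low in all 4 libraries of both genotypes, and no difference by genotype passed the test there.

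The type I keratin *Krt25* stood at 0.0704 and 0.27 RPKM in the Ctrl CLH pair, at 0.197 and 0.164 in the cKO CLH pair, at 623 and 1.14 in the Ctrl CLT pair, and at 1705 and 1873 in the cKO CLT pair. Its CLH values rested on 4 to 12 reads a library, against 78912 and 84355 reads in cKO CLT. *Krt27* stood at 3.04 and 2.42 RPKM in the Ctrl CLH pair, at 3.64 and 3.65 in the cKO CLH pair, at 600 and 4.37 in the Ctrl CLT pair, and at 1755 and 1833 in the cKO CLT pair. *Krt27* and *Krt25* did not differ beyond their spread in cKO CLT, where their ranges overlapped, although *Krt27* lay above *Krt25* in every CLH library and in Ctrl CLT 2. *Krt28* stood at 1.17 and 0.725 RPKM in the Ctrl CLH pair, at 1.95 and 1.52 in the cKO CLH pair, at 295 and 1.01 in the Ctrl CLT pair, and at 761 and 815 in the cKO CLT pair. It was the least abundant type I gene in cKO CLT, at a mean of 788 ± 37.9 (SD, n = 2) against 1794 ± 55 for *Krt27* and 1789 ± 119 for *Krt25*.

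Among the type II genes, *Krt71* stood at 0.575 and 0.428 RPKM in the Ctrl CLH pair, at 0.382 and 0.327 in the cKO CLH pair, at 1229 and 1.3 in the Ctrl CLT pair, and at 3726 and 4189 in the cKO CLT pair. Its RPKM ranked 1 of 23358 genes in cKO CLT by the group mean, 15 in Ctrl CLT 1 and 12346 in Ctrl CLT 2. *Krt73* stood at 6.41 and 9.47 RPKM in the Ctrl CLH pair, at 3.56 and 6.33 in the cKO CLH pair, at 208 and 5.1 in the Ctrl CLT pair, and at 652 and 692 in the cKO CLT pair. *Krt73* was thus the most abundant of the 6 in Ctrl CLH and in Ctrl CLT 2, and the next to lowest in cKO CLT. The companion layer gene *Krt75* stood at 2.12 and 2.12 RPKM in the Ctrl CLH pair, at 2.01 and 2.82 in the cKO CLH pair, at 127 and 2.84 in the Ctrl CLT pair, and at 390 and 429 in the cKO CLT pair. In every gene the cKO CLT libraries lay above both Ctrl CLT libraries, and Ctrl CLT 1 lay above all CLH libraries. By the group mean in cKO CLT the order was *Krt71*, then *Krt27* and *Krt25* together, then *Krt28*, *Krt73* and *Krt75*, and apart from *Krt27* and *Krt25* no neighbours overlapped in that order. In ranks among all genes these were 1, 10, 11, 65, 91 and 141.

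**Figure D1:**
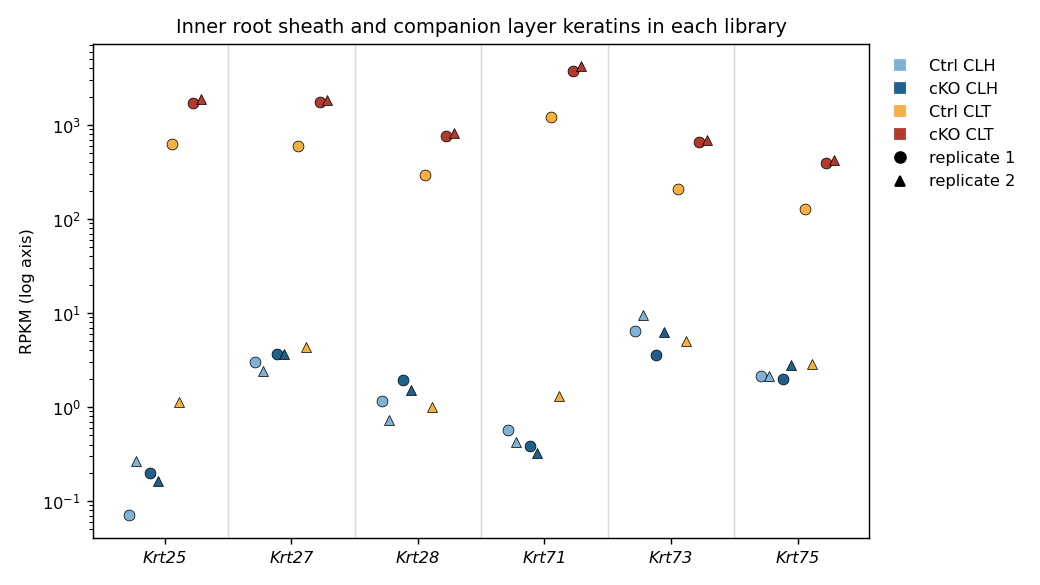
Level of each keratin in each library, in RPKM on a log axis, with groups by colour and replicates by symbol. The cKO CLT libraries sit at 390 to 4189, Ctrl CLT 1 at 127 to 1229, and Ctrl CLT 2 at 1.01 to 5.1. The CLH libraries sit at 0.0704 to 9.47. Gene by gene, Ctrl CLT 2 lies above all CLH libraries in *Krt25*, *Krt27*, *Krt71* and *Krt75*. It lies within their range in *Krt28* and *Krt73*. The gap is small in *Krt75*, at 2.84 against 2.82 in cKO CLH 2.

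Summed over the 6 genes, the RPKM came to 13.4 and 15.4 in the Ctrl CLH pair, to 11.7 and 14.8 in the cKO CLH pair, to 3082 and 15.8 in the Ctrl CLT pair, and to 8989 and 9831 in the cKO CLT pair. The reads behind these sums were 0.00284% to 0.00403% of all reads on genes in the CLH libraries and Ctrl CLT 2, 0.695% in Ctrl CLT 1, and 2.12% to 2.31% in the cKO CLT pair. Of the summed RPKM of the 51 keratin genes of the table, the 6 genes held 53.2% and 53% in cKO CLT and 46.5% in Ctrl CLT 1, against 1.79% in Ctrl CLT 2 and 1.46% to 2.27% in CLH. The basal keratins *Krt5*, *Krt14* and *Krt15* held 82.4% of that sum in Ctrl CLT 2 and 61.9% to 69% in CLH, against 10.7% and 11.2% in cKO CLT. In Ctrl CLT 1 they held 19.9%, between the other CLT libraries.

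The make-up of the 6 keratins was alike in the libraries where they were abundant. *Krt71* held 41.5% and 42.6% of their summed RPKM in cKO CLT and 39.9% in Ctrl CLT 1, but 2.21% to 4.3% in CLH and 8.23% in Ctrl CLT 2. *Krt25* held 19% and 19.1% in cKO CLT and 20.2% in Ctrl CLT 1, but 0.526% to 1.75% in CLH. *Krt73* moved the other way, from 30.3% to 61.4% in CLH and 32.3% in Ctrl CLT 2 to 7.25% and 7.04% in cKO CLT and 6.76% in Ctrl CLT 1. The ratio of type I (*Krt25*, *Krt27*, *Krt28*) to type II (*Krt71*, *Krt73*) inner root sheath keratins, which pair in the filament, was 0.964 and 0.926 in cKO CLT, 1.06 in Ctrl CLT 1 and 1.02 in Ctrl CLT 2. In CLH it ranged from 0.345 to 1.47, at summed RPKM of 3.41 to 9.89 for each type.

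**Figure D2:**
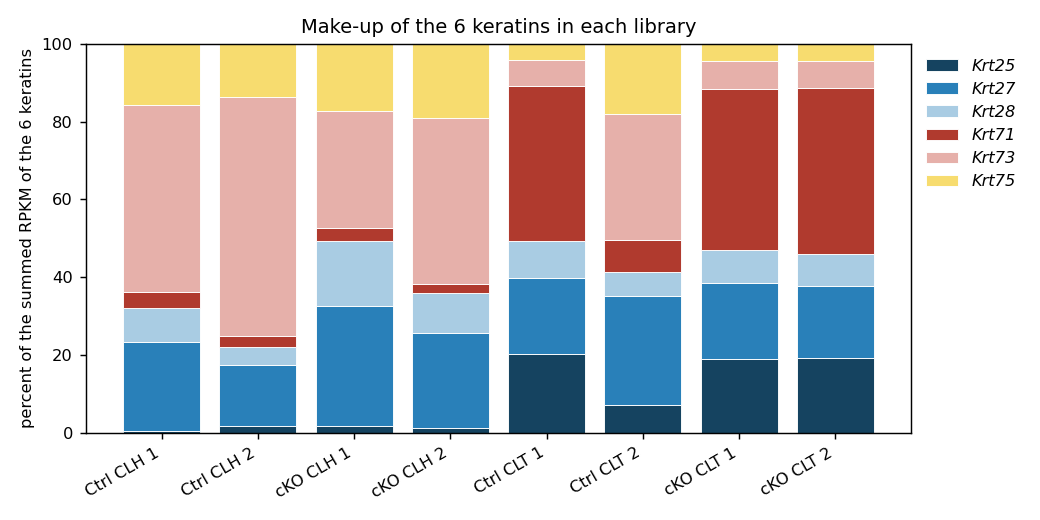
Share of each keratin in the summed RPKM of the 6, in percent, as stacked bars that each sum to 100, 1 bar per library. *Krt71* takes 39.9% to 42.6% in Ctrl CLT 1 and both cKO CLT libraries, and *Krt73* and *Krt27* take most of the bars of the CLH libraries and Ctrl CLT 2, where the sums are 11.7 to 15.8.

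The first comparison asked how the genes differed between the genotypes in CLT. Every member was higher in both cKO CLT libraries than in either Ctrl CLT library, and 0 of 6 passed the test. The log2 fold change of RPKM + 1 was 6.22 ± 3.19 (SE) for *Krt71*, 5.61 ± 2.88 for *Krt25*, 5.01 ± 2.53 for *Krt28*, 4.98 ± 2.40 for *Krt27*, 4.23 ± 1.80 for *Krt73* and 4.21 ± 1.78 for *Krt75*. The median was 5.0, against -0.01 over all genes tested. The adjusted p was 0.18 to 0.23 (limma, Benjamini-Hochberg over 14148 genes, threshold 0.05). None of the 6 had an unadjusted p under 0.05 either, the smallest being 0.077, while 2802 genes higher and 2314 lower had one. Limma with voom weights on the recovered reads also called 0 of the 6. With all 8 libraries in 1 fit, so that all groups add to 1 estimate of the spread, limma called 0 of the 6 and 23.7% of all genes higher. In the fit of the CLT libraries it called 0.0777% of all genes higher in cKO CLT, and for 37.2% of them both cKO CLT libraries lay above both Ctrl CLT libraries, so the lack of overlap alone does not set the 6 apart. With 2 libraries a group, no exact permutation test can reach a p under 0.05.

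The size of the difference depended on which Ctrl CLT library it was set against. Against Ctrl CLT 1, the mean RPKM of cKO CLT was 2.67-fold (*Krt28*), 2.87-fold (*Krt25*), 2.99-fold (*Krt27*) and 3.22-fold (*Krt71*, *Krt73* and *Krt75*) higher. Against Ctrl CLT 2 it was 132-fold (*Krt73*), 144-fold (*Krt75*), 410-fold (*Krt27*), 780-fold (*Krt28*), 1571-fold (*Krt25*) and 3051-fold (*Krt71*) higher. Between the Ctrl CLT libraries themselves the ratio was 40.9-fold (*Krt73*) to 948-fold (*Krt71*), which is larger than the ratio of cKO CLT to Ctrl CLT 1 in each gene. With either of them left out, all 6 passed the test. Without Ctrl CLT 1 the log2 fold changes were 6.74 ± 0.11 (*Krt75*) to 10.75 ± 0.12 (*Krt71*), with a largest adjusted p of 2.5e-06, and limma called 31.4% of all genes higher in cKO. Without Ctrl CLT 2 they were 1.41 ± 0.12 (*Krt28*) to 1.68 ± 0.15 (*Krt71*), with a largest adjusted p of 0.00074, and limma called 29.1% of all genes higher. These fits assume that the single Ctrl CLT library varies like the cKO CLT pair, and the deposited Ctrl CLT pair varied far more.

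**Figure D3:**
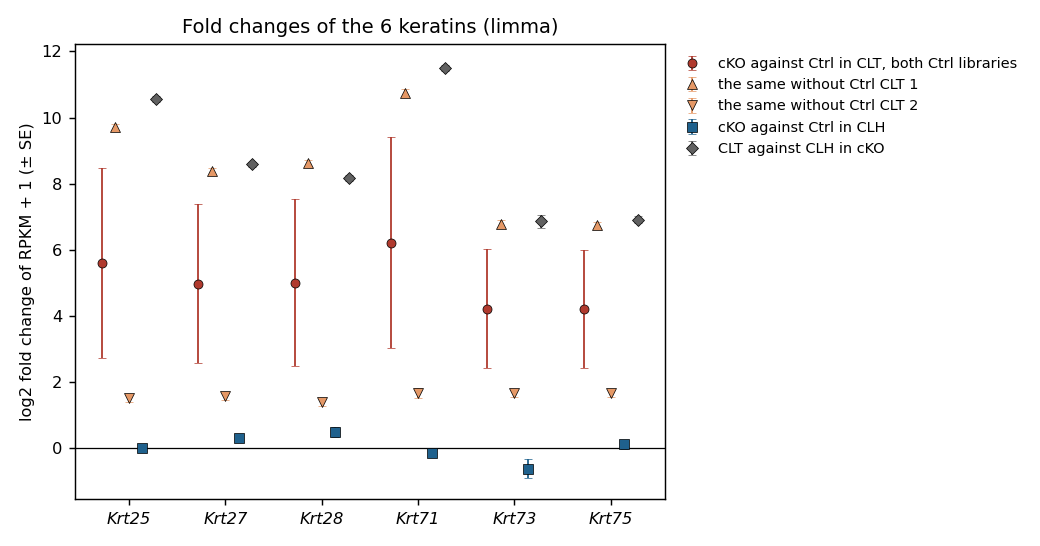
Log2 fold change of RPKM + 1 with its standard error for each keratin, from limma, for cKO against Ctrl in CLT with both and with 1 of the Ctrl CLT libraries, for cKO against Ctrl in CLH, and for CLT against CLH in cKO. The error bars are wide only where both Ctrl CLT libraries enter (1.78 to 3.19), and the CLH values lie between -0.61 and 0.50.

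In Ctrl CLT 1 the 6 genes stood at nearly the same share of their cKO CLT mean, from 31.0% (*Krt73*) to 37.4% (*Krt28*). That share was not particular to them. Among all genes with a mean RPKM of at least 10 in cKO CLT and under 1% of it in Ctrl CLT 2, the share in Ctrl CLT 1 had a median of 32.6% and quartiles of 29.7% and 35.3%. These were 267 genes, the 6 members included. In the other direction 51 genes had an RPKM of at least 10 in Ctrl CLT 2 and under 1% of it in cKO CLT, and their level in Ctrl CLT 1 was far more spread, with a median of 39.9% of Ctrl CLT 2 and quartiles of 23.5% and 99.4%. The summed RPKM of some marker lists stood in Ctrl CLT 1 at a share of cKO CLT like that of the 6, at 34.0% for 15 hair shaft keratins, 34.6% for 9 cornified epidermis markers, 31.9% for 4 suprabasal epidermal keratins, 32.3% for 7 melanocyte markers, 34.8% for 6 skeletal muscle markers and 31.7% for 5 sebaceous gland markers. In Ctrl CLT 2 these lists stood at 0.0576% to 2.64%. Other skin and hair lists stood higher in Ctrl CLT 1, at 41.4% for 5 oral mucosa markers, 41.7% for 4 stress keratins, 60.9% for 17 hair follicle transcription factors and 67.9% for 3 basal and outer root sheath keratins, and at 7.68% to 47% in Ctrl CLT 2. The part of skin, pigment cell or muscle RNA in the levels of the 6 keratins was not tested. In bulk tissue, fewer cells of a type and less RNA per cell cannot be told apart.

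**Figure D4:**
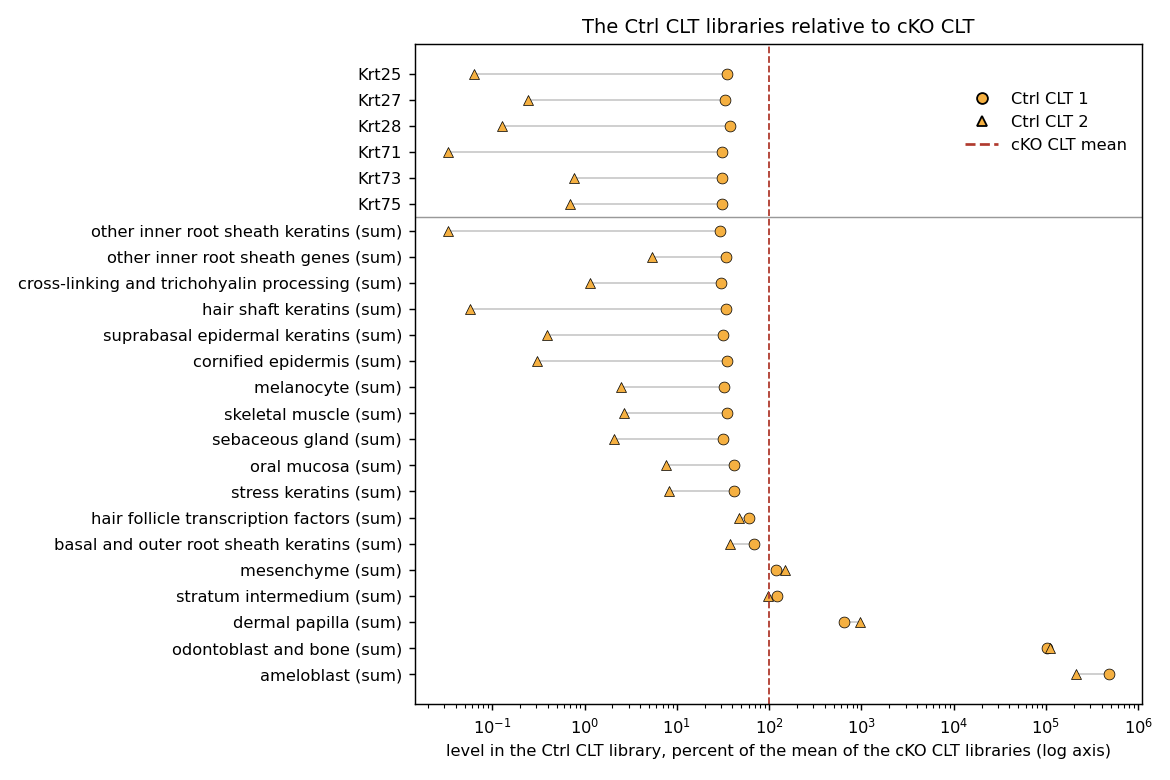
Level in each Ctrl CLT library as a percent of the mean of the cKO CLT libraries, on a log axis, for the 6 keratins (above the line) and for summed marker lists (below it). The points of Ctrl CLT 1 form a column at 29.4% to 37.4% for the keratins and for all lists down to the sebaceous gland, while those of Ctrl CLT 2 spread from 0.0328% to 5.42% in the same rows. The lists from oral mucosa to basal keratins lie at 41.4% to 67.9% in Ctrl CLT 1, and both points lie far above 100% for the ameloblast and the odontoblast and bone lists.

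In CLH, the region of the stem cells, 0 of the 6 genes passed the test between genotypes, as did 0% of all genes (limma). The log2 fold changes were 0.50 ± 0.15 (*Krt28*), 0.32 ± 0.11 (*Krt27*), 0.12 ± 0.14 (*Krt75*), 0.02 ± 0.09 (*Krt25*), -0.15 ± 0.07 (*Krt71*) and -0.61 ± 0.29 (*Krt73*). The median was 0.07 against -0.01 over all genes, and the adjusted p was 0.69 to 0.97. At an unadjusted p under 0.05 (limma) there were 2 members, *Krt27* and *Krt28*, both higher in cKO. Over all genes tested, members included, 684 higher and 343 lower had such a p. Voom on the recovered reads called 0 of the 6. Both cKO libraries lay above both Ctrl libraries in *Krt27* and *Krt28*, and below both in *Krt71* and *Krt73*. That is 4 of 6 genes without overlap, beside 38.7% of all genes in either direction. At an RPKM of 0.327 to 0.575, the *Krt71* difference rested on 21 to 43 reads a library. *Krt25*, at 0.0704 to 0.27 in the 4 libraries, and *Krt75* overlapped between the genotypes.

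Within cKO, all 6 genes rose from CLH to CLT. The log2 fold change was 11.51 ± 0.09 for *Krt71*, 10.56 ± 0.09 for *Krt25*, 8.59 ± 0.08 for *Krt27*, 8.18 ± 0.10 for *Krt28*, 6.92 ± 0.12 for *Krt75* and 6.86 ± 0.19 for *Krt73*, with adjusted p from 4.3e-11 to 1.2e-08 (limma). In mean RPKM these were 11174-fold, 9902-fold, 492-fold, 454-fold, 169-fold and 136-fold. Limma called 28.9% of all genes higher in cKO CLT than in cKO CLH and 6384 lower, with a median over all genes of -0.18. With median-of-ratios scaling 51.9% of the genes called were higher, against 39.0% without it, the median over all genes was 0.02 and the members' median moved from 8.38 to 8.58. The 2 cKO CLT libraries differed from each other by 1.04-fold to 1.12-fold in the 6 genes. Over the same libraries the summed RPKM of the ameloblast markers went from 13658 and 14318 in cKO CLH to 19.7 and 15.8 in cKO CLT, and its part in the keratin fold changes was not tested.

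Within Ctrl, 0 of 6 genes passed the test between CLT and CLH, where limma called 0.00707% of all genes higher in CLT. None of the 6 had an unadjusted p under 0.05, and voom on the recovered reads called 0. The log2 fold changes ran from 2.02 ± 1.82 (*Krt73*) to 5.15 ± 3.22 (*Krt71*), with adjusted p of 0.49 to 0.61. The result rested on the 2 libraries in opposite ways. Without Ctrl CLT 2 all 6 passed, with log2 fold changes of 4.57 ± 0.26 (*Krt73*) to 9.68 ± 0.10 (*Krt71*), and limma called 18.4% of all genes higher in CLT. Without Ctrl CLT 1 none passed, beside 1.91% of all genes called higher, with values of -0.53 ± 0.27 (*Krt73*) to 0.88 ± 0.13 (*Krt25*). Ctrl CLT 2 was above the Ctrl CLH mean by 6.68-fold in *Krt25*, where 50 reads stood against 4 and 12, and by 2.59-fold in *Krt71*. It was at 0.642 of the Ctrl CLH mean in *Krt73*.

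Whether the cKO effect differed between the regions was tested with an interaction term, fitted over all 8 libraries. The term was 6.36 ± 3.64 for *Krt71*, 5.60 ± 3.29 for *Krt25*, 4.84 ± 2.08 for *Krt73*, 4.66 ± 2.73 for *Krt27*, 4.52 ± 2.89 for *Krt28* and 4.09 ± 2.04 for *Krt75* on the log2 scale. With adjusted p of 0.14 to 0.29, 0 of 6 passed, 0 had an unadjusted p under 0.05, and voom called 0, while limma called 8.05% of all genes in the same direction. With Ctrl CLT 1 or Ctrl CLT 2 left out all 6 passed, at 6.61 to 10.90 and at 0.92 to 2.29, beside 28.5% and 26.6% of all genes.

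The other keratins of the inner root sheath followed the same course. *Krt26*, a type I gene between *Krt25* and *Krt27*, stood at 107 and 0.13 RPKM in the Ctrl CLT pair and at 376 and 356 in the cKO CLT pair, and at most 3 reads in any CLH library. *Krt74*, annotated as a transcribed pseudogene in the mouse, had 7.89 in Ctrl CLT 1, no read in Ctrl CLT 2, which allows an RPKM of up to 0.071 for counting error only, and 27 and 27.5 in cKO CLT. Both rose from CLH to CLT in cKO (log2 fold changes of 8.48 ± 0.09 and 4.72 ± 0.10, adjusted p = 6.6e-11 and 2.5e-09, limma), and neither passed between genotypes in CLT (adjusted p = 0.2 and 0.13), where *Krt74* alone of the pair passed with all 8 libraries in 1 fit. *Krt72-ps*, the mouse relative of the human gene KRT72, was added after its values were seen. It stood at 376 and 0.529 RPKM in the Ctrl CLT pair and at 1069 and 1187 in the cKO CLT pair, and lies between *Krt71* and *Krt73* on the chromosome. Its level lay between theirs in Ctrl CLT 1 and the cKO CLT pair, and below both in Ctrl CLT 2 and in CLH.

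The genes that build and harden the sheath were taken as a further list. Of all genes tested, 28.9% were called higher in cKO CLT than in cKO CLH, and 37.2% lay higher in cKO CLT than in Ctrl CLT without overlap. Of 9 such genes 8 rose from CLH to CLT in cKO, all 9 had higher values in both cKO CLT libraries than in either Ctrl CLT library, and 0 passed the test between genotypes in CLT (limma, 3 at an unadjusted p under 0.05, 0 by voom, 5 with all 8 libraries in 1 fit). *Tchh* encodes trichohyalin, the protein that fills and stiffens sheath cells, and stood at 509 and 1.48 RPKM in the Ctrl CLT pair and at 1636 and 1801 in the cKO CLT pair. Its relative *Tchhl1* had 96.5 and 0.564 against 276 and 268. The enzymes that modify and cross-link trichohyalin had lower levels, with 17.9 and 0.165 against 59.7 and 60.7 for the transglutaminase *Tgm3*, 12.1 and 0.34 against 40.3 and 45.2 for the deiminase *Padi1*, and 75 and 0.686 against 237 and 262 for *Padi3*. *Gata3*, a transcription factor needed for the inner root sheath, had 12.2 and 0.14 against 39.7 and 38.9. These 6 genes stood at 1.48 or less in Ctrl CLT 2 and at a level between in Ctrl CLT 1.

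The other 3 transcription factors differed from that pattern in level. *Prdm1* stood at 6.09 and 3.5 RPKM in the Ctrl CLT pair against 21.1 and 20.4 in cKO CLT, and 5.15 ± 0.672 in Ctrl CLH (SD, n = 2). Its log2 fold change between genotypes in CLT was 1.95 ± 0.27 (limma, adjusted p = 0.061), and the difference of that effect from CLH passed the test (2.22 ± 0.32, adjusted p = 0.011), but not when any 1 of the 6 other libraries than the Ctrl CLT pair was left out (0.058 to 0.076). *Cux1* had 20.3 and 12.1 against 31.3 and 33.9 (1.01 ± 0.28, adjusted p = 0.099). *Dlx3*, which is used in tooth and hair alike, was at 125 and 120 in Ctrl CLT, 134 and 140 in cKO CLT and 136 ± 0.923 in Ctrl CLH, and did not pass in any comparison made here.

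Further lists of the hair and skin were described in the same way for the genotypes in CLT. Their counts without overlap stand beside 37.2% of all genes tested, for which both cKO CLT libraries lay above both Ctrl CLT libraries. Of 17 hair follicle transcription factors, 4 of which are among the 9 genes above, 13 lay higher and 3 lower without overlap and 0 passed (9 and 1 at an unadjusted p under 0.05, 0 by voom, 10 and 1 with all 8 libraries in 1 fit). Their extremes were *Hoxc13*, a regulator of hair keratins, at 21.4 and 0.0309 in Ctrl CLT against 65.4 and 61.8 in cKO CLT, and *Msx1*, a factor of tooth and other appendages, at 2.83 and 6.23 against 1.07 and 1.52. All 7 cross-linking and trichohyalin processing genes, 4 of them named above, lay higher and 0 passed (3 at an unadjusted p under 0.05, 0 by voom, 5 with all 8 libraries in 1 fit), from *Tchh* to *Tgm1*, at 30.6 and 22.1 against 60.8 and 66. All 15 hair shaft keratins lay higher and 0 passed (3 at an unadjusted p under 0.05, 0 by voom, 5 with all 8 libraries in 1 fit), with a median log2 fold change of 4.40, beside 5.0 for the 6 sheath keratins. They ran from *Krt33a*, at 262 and 0.112 against 763 and 804, to *Krt84*, at 9.15 and 0.132 against 27.8 and 31.2. The summed RPKM of the 6 sheath keratins was 2.66 times that of the hair shaft keratins in Ctrl CLT 1 and 2.76 and 2.77 times in cKO CLT, and 8.04 times in Ctrl CLT 2.

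In the remaining skin lists 0 genes passed between genotypes in CLT, by limma or by voom. The log2 fold changes of the basal and outer root sheath keratins ran from 0.64 ± 0.38 (*Krt14*) to 2.77 ± 1.11 (*Krt15*), those of the stress keratins from -0.31 ± 0.29 (*Krt6b*) to 2.75 ± 0.93 (*Krt6a*), and those of the suprabasal epidermal keratins from 3.66 ± 1.42 (*Krt1*) to 5.0 ± 2.32 (*Krt77*). The cornified epidermis markers ran from 2.19 ± 0.78 (*Calm5*) to 4.80 ± 2.40 (*Krtdap*), the sebaceous markers from 2.0 ± 0.50 (*Awat2*) to 3.31 ± 1.18 (*Elovl3*), and the oral mucosa markers from -1.36 ± 0.39 (*Krt76*) to 2.59 ± 0.88 (*Dmkn*). At an unadjusted p under 0.05 these lists held 1 of 3, 2 of 4, 0 of 3, 3 of 9, 4 of 4 and 2 of 5 genes tested, in that order. With all 8 libraries in 1 fit, limma called 2, 2, 1, 5, 4 and 1 of them higher in cKO CLT, and 1 oral mucosa marker lower.

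Markers of other cells moved with the keratins or against them, where 37.2% of all genes tested lay higher in cKO CLT without overlap. The 7 melanocyte markers lay higher in cKO CLT without overlap, from *Mitf* (1.91 ± 0.34) to *Mlana* (4.19 ± 1.85), and so did the 6 skeletal muscle markers, from *Myh2* (1.96 ± 0.48) to *Myh4* (3.80 ± 1.56), with 0 past the threshold in both lists (5 and 1 at an unadjusted p under 0.05, 0 by voom, 6 and 5 with all 8 libraries in 1 fit). The summed RPKM of the melanocyte list was 4.26 to 4.58 in CLH, 136 and 10.3 in the Ctrl CLT pair and 420 and 421 in the cKO CLT pair, and that of the muscle list was 26.3 to 30.6, 641 and 48.7, and 1755 and 1930. Of 6 dermal papilla markers, the mesenchymal cells at the base of a hair, 1 fell, *Wif1*, from 152 and 221 to 14.6 and 14.3 (limma, adjusted p = 0.029). *Wif1* did not pass with voom (adjusted p = 0.056) or with limma without the filter on low values (0.09). The largest log2 fold change of the list was that of *Corin* (1.42 ± 0.33), at 2.17 and 0.807 against 5.4 and 5.4 RPKM. In the CLH libraries, where the 6 keratins were low, *Wif1* stood at 220 to 251 RPKM. The cells it came from were not tested. With all 8 libraries in 1 fit 2 of the 6 dermal papilla markers were called higher and 3 lower. The 8 mesenchyme markers summed to 2571 and 3228 RPKM in the Ctrl CLT pair and to 2038 and 2302 in the cKO CLT pair, with 0 past the threshold (6 at an unadjusted p under 0.05, 0 by voom, 1 higher and 5 lower with all 8 libraries in 1 fit), from *Pdgfra* (-1.80 ± 0.53) to *Col3a1* (0.91 ± 0.19). Of 5 stratum intermedium markers 4 had a positive and 1 a negative log2 fold change, with a median of 0.43. Their summed RPKM was 982 and 771 in the Ctrl CLT pair and 763 and 843 in the cKO CLT pair. *Alpl* alone passed the test, and fell from 264 and 369 to 1.94 and 1.97 (limma, adjusted p = 0.013, and 0.078 without the filter on low values). *Notch1* was at 13.2 and 6.89 against 32 and 36.1. Of the dentin and bone markers *Phex* fell from 14.4 and 29.4 to 0.359 and 0.234 (limma, adjusted p = 0.043) and *Dspp* from 543 and 644 to 0.145 and 0.174. *Phex* did not pass with voom (adjusted p = 0.068) or with limma without the filter on low values (0.092). The part of these other cells in the keratin values was not tested.

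The genes whose pattern was most like that of the 6, by Pearson's r with their mean log2(RPKM + 1) over the 8 libraries, were *Krtap3-1* and *Krt31* (r = 0.9999) and *Krtap13-1*, *Krt33b* and *Krt34* (r = 0.9998). All 5 encode hair shaft keratins or the associated proteins that embed them. *Krt31* had an RPKM of 0.0235 to 0.075 in CLH, 114 and 0.143 in the Ctrl CLT pair and 322 and 356 in the cKO CLT pair. The nearest gene to each member was *Psors1c2* for *Krt25*, *Krtap16-10b* for *Krt27*, *Crnn* for *Krt28* and *Krt72-ps* for *Krt71*, all with r of at least 0.9997, then *Krtap17-1* for *Krt75* (r = 0.9995) and *Fabp4*, a gene of fat cells, for *Krt73* (r = 0.9971). Such values are common in these libraries, since 262 of the 8377 genes compared had r above 0.99, and the 8 points of each gene fell into a high and a low set. Between the members, r was 0.9868 (*Krt28* and *Krt73*) to 0.9996 (*Krt25* and *Krt71*).

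Neighbouring genes of the same clusters did not all share the pattern. Among those that did on chromosome 15, *Krt82* stood at 17.2 and 0.521 RPKM in the Ctrl CLT pair and at 57.9 and 65.7 in the cKO CLT pair. *Krt1* had 19.9 and 0.292 against 66.6 and 63.2, and *Krt77* had 107 and 0.131 against 340 and 364. On the *Krt25* side, *Krt24*, which lies 30.6 kb from *Krt25*, stood at 1.03 and 0.134 RPKM in the Ctrl CLT pair and at 0.275 and 0.195 in the cKO CLT pair. On the *Krt28* side, the suprabasal keratin *Krt10*, 10.4 kb away, stood at 138 and 2.84 in the Ctrl CLT pair and at 409 and 419 in the cKO CLT pair. *Krt2*, 8.36 kb from *Krt73*, stood at 0.0654 and 0 in the Ctrl CLT pair and at 0.273 and 0.295 in the cKO CLT pair. That is the direction of the members, at a very low level. Between *Krt75* and *Krt71*, *Krt5* was high in all groups, at 268 to 317 in CLH, 633 and 436 in the Ctrl CLT pair and 936 and 1079 in the cKO CLT pair. *Krt82*, *Krt1* and *Krt77* were chosen for their pattern and the others for their place, all after their values were seen.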

How the data were processed

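RNA-seq values of 8 libraries were used, 2 in each of 4 groups taken from the sample labels. The authors prepared libraries with the TruSeq v2 kit and sequenced paired-end reads of 50 bases. Per their methods and processing notes, reads were checked with FastQC 0.72, trimmed with Trim Galore 0.4.3.1, aligned to mm10 with STAR 2.6.0b-1 and counted with featureCounts 1.6.3. The authors deposited RPKM for 23358 genes. The annotation, the strand setting and the total used for the RPKM are not given in the sources used here.

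RPKM multiplied by gene length gave whole multiples of 1 step per library for 100.0% of values (tolerance 0.1 read), and thereby the reads and totals. These served for depth and for 1 alternative only. Floors of 3 reads cover counting error only.

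The 14148 genes that reached an RPKM of 1 in 2 or more of the 8 libraries were tested on log2(RPKM + 1), so fold changes of low genes are understated. limma 3.58.1 in R 4.3.3 (eBayes with a variance trend) was fitted within the 4 libraries of each comparison, and over all 8 for the interaction. P-values were adjusted by Benjamini-Hochberg and read at 0.05. Promoter alignments used Biopython 1.88. The alternatives were voom on the recovered reads, a replicate block, a pseudocount of 0.1, quantile normalization, median-of-ratios scaling, a single fit of the 8 libraries, a fit without the variance trend, testing without the filter, and each library left out in turn. The code was tested on simulated data.

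The members, the gene lists and the tests were chosen with earlier results of these data known. Named genes are the members, *Med1*, the other sheath genes found, the extremes of each other list by their log2 fold change between genotypes in CLT, and the genes with the highest correlation, among those with an RPKM of at least 10 in 1 library. *Krt72* and *Flg* of the lists were not analysed here. Of the gene names, 26 stood on more than 1 row, none of them of a gene named here.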

Additional observations from a re-analysis of the deposited data

Results flagged for a closer look

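For *Krt71* and *Krt73* the values of the genotypes lay in opposite orders in the 2 regions, with no overlap of the groups in either region. Such a lack of overlap was frequent over all genes, at 37.2% in CLT (cKO higher) and 38.7% in CLH (either direction). In CLT both cKO libraries lay above both Ctrl libraries, and in CLH both lay below. The interaction term of limma, the cKO effect in CLT minus that in CLH, was 6.36 (*Krt71*, adjusted p = 0.24) and 4.84 (*Krt73*, adjusted p = 0.14) on the log2 scale, so neither passed the threshold. The CLH part of it was -0.15 ± 0.07 (SE) for *Krt71* and -0.61 ± 0.29 for *Krt73*. Neither passed the test in CLH (limma, adjusted p = 0.69 and 0.71). Over the alternatives that keep all 8 libraries, the adjusted p of the interaction was 0.18 to 0.7 for *Krt71* and 0.15 to 0.22 for *Krt73*.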

How the results depend on the processing

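Leaving out a library gave the widest changes, and these came from the Ctrl CLT pair. With 1 library left out in turn, the number of members past the threshold ran from 0 to 6 for cKO against Ctrl in CLT, for CLT against CLH in Ctrl and for the interaction. In the first and the last it was 6 with either Ctrl CLT library left out, and in the second 0 without the first and 6 without the second of them. The median log2 fold change of the members in CLT ran from 1.63 to 8.5. The count stayed at 0 in CLH and at 6 for CLT against CLH in cKO under every alternative run. The pseudocount of 0.1 and voom moved the members' median in CLH from 0.07 to 0.16 and 0.28. For CLT against CLH in cKO, the median of 8.38 became 8.83 with the pseudocount of 0.1, 8.58 with median-of-ratios scaling, 8.22 with quantile normalization and 8.88 with voom. Signs turned for *Krt73* in CLT against CLH in Ctrl (-0.53 without Ctrl CLT 1, 4.57 without Ctrl CLT 2), and in cKO against Ctrl in CLH for *Krt25* (-0.11 without Ctrl CLH 1, -0.00 without cKO CLH 1, 0.14 without Ctrl CLH 2, and 0.42 with voom, the highest) and *Krt75* (-0.05 without cKO CLH 2, 0.29 at the highest). The cause was not tested.

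The replicate numbers are shared by the groups, and nothing states what they stand for. The deviations of replicate 1 from its group mean correlated over 14148 genes at -0.19 between Ctrl CLT and cKO CLT, 0.07 between the CLH groups, 0.31 between the cKO groups and 0.20 between the Ctrl groups. With a replicate block 2 of 6 members passed in CLT (*Krt73* and *Krt75*, adjusted p = 0.049 for both), where limma called 888 genes higher and 856 lower in place of 11 and 237. A crossed pairing, chosen after seeing the data, called 0 members and 0 genes higher and 9 lower. The block changed no other count of members. With all 8 libraries in 1 fit 0 members but 3352 genes passed as higher in CLT, and voom called 0 genes higher and 18 lower. At 4 to 12 reads a library, differences of *Krt25* within CLH are hardly detectable.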
